A study of Danio rerio with 24 samples.

Results

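Described here are 6 sequencing libraries, the 3 labelled MTZ+ Rapamycin 2dpi and the 3 labelled MTZ+ DMSO 2dpi, which were compared across all genes. They are 6 of the 24 libraries of a zebrafish study of the retinal pigment epithelium (RPE), which has 8 groups of 3 libraries: larvae with or without ablation (MTZ+ or MTZ-), given DMSO or rapamycin, at 2 or 4 days post-injury (dpi). Larvae of every group carried the *rpe65a*:nfsB-eGFP transgene, in which the *rpe65a* promoter drives a fusion of bacterial nitroreductase and eGFP in the RPE, and nitroreductase turns the prodrug metronidazole (MTZ) into a toxin, so that only MTZ+ larvae lost RPE cells. All were also raised in a blocker of melanin synthesis before MTZ was given. At 2dpi the larvae were 7 days post-fertilization (7dpf). The inhibitor of mTOR, rapamycin, or its vehicle DMSO was in the water of the whole larva from the day before ablation, so cells other than the RPE were exposed as well. Each library came from the pooled eyes of many larvae, from which at most 1000 living eGFP+ cells were sorted. In MTZ+ larvae these are the eGFP+ cells that outlived the ablation or formed after it. The comparison asks which transcripts of eGFP+ cells depended on mTOR early in regeneration.

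The RPE is a pigmented epithelium that lies against the photoreceptors. It recycles the retinal of the visual pigments, carries ions and water, and takes up shed photoreceptor outer segments. Zebrafish regenerate the RPE after ablation, which mammals do to a very limited degree. The kinase mTOR acts in complexes that sense nutrients and growth factors. When active, mTOR complex 1 drives translation and ribosome production through S6 kinase and the 4E-BP proteins and holds autophagy back, and rapamycin, bound to an FKBP protein, blocks much of that complex's activity.

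The 3 MTZ+ DMSO libraries held 22230490, 22842916 and 23195175 counts on genes and the 3 MTZ+ rapamycin libraries held 31294052, 33336362 and 30099569. The groups did not overlap in total count. Levels are given as CPM, counts scaled by the library size after TMM normalization (the usual CPM unit). Beside each fold change stands its standard error (SE), and a gene was called differentially expressed (a DEG) when edgeR's quasi-likelihood test gave an adjusted p under 0.05, its level changed by more than 1 on the log2 scale, and the higher of the 2 groups averaged at least 1 TPM. These errors describe the spread between libraries of pooled eyes, which may be partly technical, and the amplified reads carry no molecular identifiers, so counting floors cover counting error only.

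Few genes passed this test for rapamycin in ablated RPE. Of 17536 genes tested, 93 were DEGs (0.530%), 62 upregulated (0.354%) and 31 downregulated (0.177%), with smallest adjusted p of 0.00222 in both directions. At an unadjusted p under 0.05, 1593 genes were higher (9.08%) and 781 lower (4.45%). The paper's own test of this contrast, with limits of the same kind, found more DEGs, more of them downregulated than upregulated. Among the 62 genes called upregulated here the median log2 fold change was 1.58. It was -1.92 among the 31 downregulated ones and 0.02 over all tested genes. The DMSO and rapamycin libraries overlapped in level in none of these 93 DEGs, so a lack of overlap adds nothing to a call. Over all tested genes, 9.44% were higher and 7.40% lower without overlap. Same-numbered libraries share a date in their labels, and a fit that blocked on the number called 144 genes upregulated (0.821%) and 70 downregulated (0.399%), among which were 59 of the 62 and 31 of the 31. The spread was estimated over all 12 libraries of this time point. The 6 libraries alone gave 0 DEGs with 1597 genes at an unadjusted p under 0.05, and DESeq2 gave 333 upregulated (1.96%) and 238 downregulated (1.40%). Leaving out MTZ+ DMSO replicate 1, 2 or 3 gave 18, 2 or 34 DEGs, and leaving out MTZ+ rapamycin replicate 1 or 3 gave 37 or 21. Only *krt97* and *selenop* were DEGs in 6 of the 6 leave-one-out fits. DEGs described below that were called in 0 of the 6 include *glula*, *ddx21*, *serpinb1*, *ptgdsb.2*, *sgpl1*, *pdia4*, *nfasca* and *bmp7b*. The span of 10 upregulated and 8 downregulated DEGs overlaps that of another gene, and without knowing how strand was used in counting, reads of such a pair cannot be told apart.

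**Figure D1:**
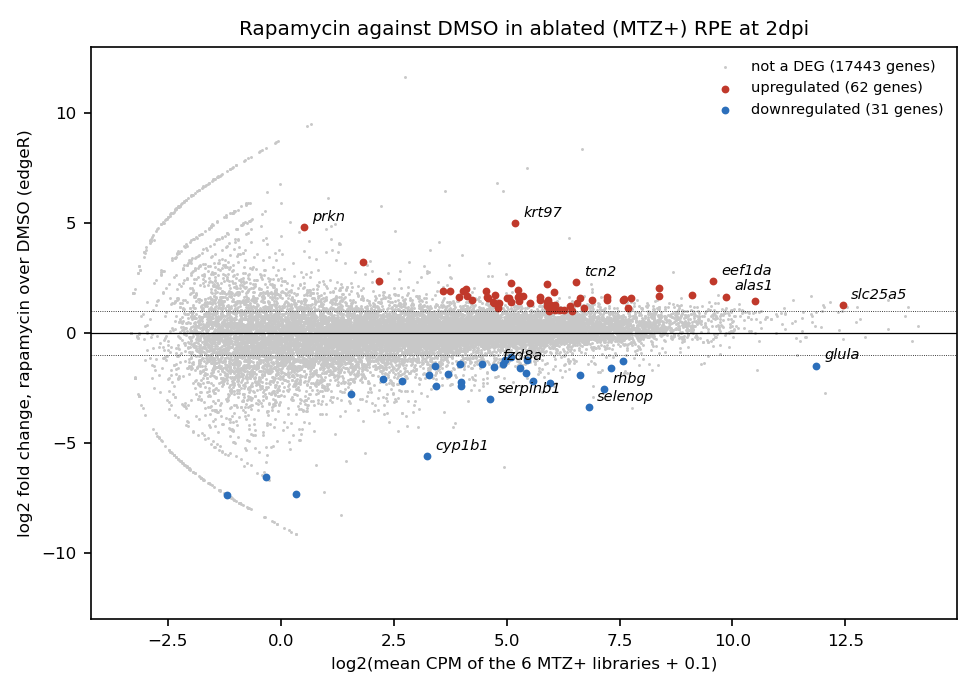
Log2 fold change of rapamycin over DMSO in MTZ+ RPE at 2dpi (y axis, edgeR) against the log2 mean level of the 6 libraries in CPM plus 0.1 (x axis); each dot is a gene, DEGs are red (62 up) or blue (31 down), and dotted lines mark log2 changes of 1 and -1. Upregulated DEGs have a median of 1.58 on the log2 scale, with *krt97* (4.98), *prkn* (4.82) and *si:dkey-247m21.3* (3.24) above the rest, and *slc25a5* and *glula* are the most abundant DEGs.

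The upregulated DEGs included genes of the translation machinery. The level of *eef1da*, a subunit of the factor that recharges elongation factor 1A with GTP (ENSDARG00000102291, GRCz11 chromosome 2, 50999477 to 51032888), was 289, 171 and 281 CPM in the DMSO libraries and 1092, 887 and 1806 CPM with rapamycin. The lowest rapamycin library was thus far above the highest DMSO library, and the log2 fold change was 2.35 (SE 0.33, adjusted p = 0.0235, edgeR). A pair of further members of the translation factor list rose: *tpt1*, the translationally controlled tumor protein, from 765 ± 150 to 2124 ± 901 CPM (SD, n = 3 each), and *eef2l2*, related to elongation factor 2 by its name, from 16.5 ± 3.40 to 50.1 ± 9.43 CPM. Over the list, 3 of 72 tested initiation and elongation factors were upregulated DEGs (0.354% of all tested genes were). None was downregulated (0.177% of all tested genes were), and the median log2 fold change was 0.36. With the replicate block 6 were upregulated, *eif3k* and *eif3hb*, subunits of initiation factor 3, among them (adjusted p = 0.0487 and 0.0496, against 0.0765 and 0.0664 without it). In intact MTZ- RPE the list's median was also 0.36, with 0 DEGs without the block. There, 29 of the 72 were higher at an unadjusted p under 0.05 (4.45% of all tested genes were). In ablated RPE 31 were (9.08% of all tested genes). For *eef1da* the log2 fold change in intact RPE was 1.44 (SE 0.32, adjusted p = 0.135, edgeR).

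Transcripts of ribosomal proteins were higher as a group, although almost none passed the test alone. Of 83 tested members, 82 had a log2 fold change above 0, the median was 0.85, 29 were higher in every rapamycin library than in every DMSO library (9.44% of all tested genes were) and 71 had an unadjusted p under 0.05 (9.08% of all tested genes were higher at that limit). Only *rpl37_1* was a DEG, at 19.8, 15.8 and 20.8 CPM with DMSO and 54.0, 34.3 and 61.7 CPM with rapamycin, and its span overlaps that of *blvra*, so its reads may be shared. The small-subunit gene *rps2* shows the usual size, with 1181, 822 and 1133 CPM against 1827, 1636 and 2606 CPM, and it was no DEG (log2 fold change 0.95, SE 0.23, adjusted p = 0.0887). The third replicate of the rapamycin group was the highest for both genes. Without that library the median of the 83 genes was 0.33, and in the 3 same-numbered pairs of libraries it was 0.48, 0.60 and 1.24. In intact MTZ- RPE, rapamycin gave the same genes a median log2 fold change of 0.68, with 37 of 83 higher at an unadjusted p under 0.05 (4.45% of all tested genes) and 0 DEGs by the same test. Pseudogenes and duplicates of ribosomal protein genes can share reads, and how the authors' program assigned these is not stated.

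Factors that build ribosomes were split. The DEGs were *nsa2*, which acts in assembly of the large subunit and overlaps *spout1*, and *ddx21*, a nucleolar RNA helicase. The helicase gene was at 51.6, 54.5 and 81.4 CPM in the DMSO libraries and at 197, 156 and 172 CPM with rapamycin (log2 fold change 1.48, SE 0.29, adjusted p = 0.0497), and *nsa2* was at 267, 242 and 268 CPM against 677, 585 and 1276 CPM (1.71, SE 0.29, adjusted p = 0.0366). As for every DEG, neither gene's groups overlapped. A GTPase of large-subunit assembly, *gtpbp4*, went from 269 ± 63.6 to 636 ± 32.7 CPM and missed the limit (adjusted p = 0.0544; 0.0220 with the replicate block, where it is a DEG). The other members moved little, since the median over 50 tested biogenesis factors was 0.10 (-0.01 without the first rapamycin library) and 31 were above 0. At an unadjusted p under 0.05, 4 of the 50 were higher (9.08% of all tested genes were) and 0 lower. Outside the lists, 3 more upregulated DEGs were picked after their values were seen: *pno1*, an assembly factor of the small subunit, rose from 101 ± 16.3 to 283 ± 113 CPM, *polr3gla*, named as a subunit of RNA polymerase III, rose from 38.9 ± 6.53 to 95.0 ± 22.3 CPM, and *slc25a5*, a carrier that exchanges ADP and ATP across the inner mitochondrial membrane, rose from 3267 ± 296 to 7817 ± 2274 CPM.

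**Figure D2:**
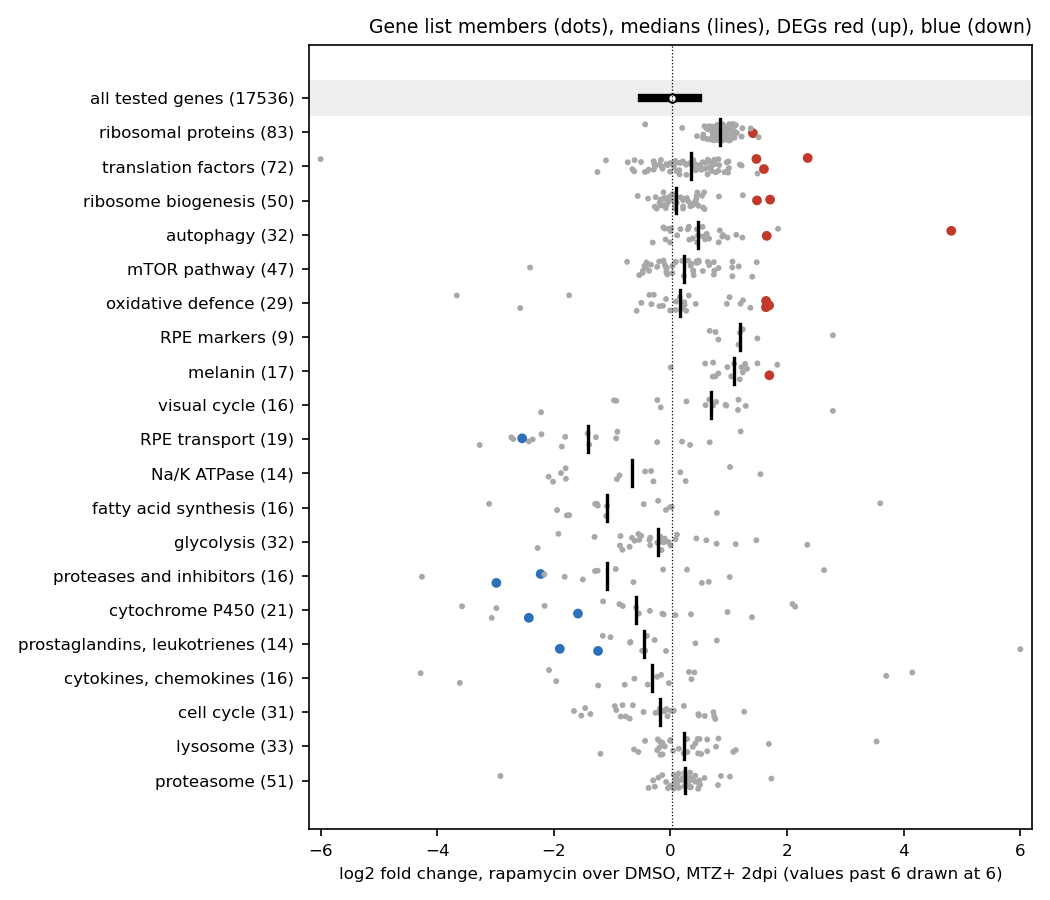
Log2 fold change of rapamycin over DMSO in MTZ+ RPE at 2dpi for the tested members of 20 gene lists (dots, number tested in brackets), with the median of each list as a black line, DEGs in red (up) and blue (down), and in the top row the median and middle 50% of all 17536 tested genes. The ribosomal proteins form a narrow cluster at a median of 0.85, the RPE markers and melanin genes lie at medians of 1.19 and 1.09, and RPE transport genes lie at -1.42.

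None of the genes that encode the mTOR pathway itself was a DEG. The list holds 47 tested genes of the mTOR complexes, the TSC, Rheb and Rag branches, S6 kinases and 4E-BPs, with a median log2 fold change of 0.23 (0.03 without the third rapamycin library), 29 values above 0 and 18 below. For *mtor*, the 3 DMSO libraries stood at 26.1, 23.0 and 31.9 CPM and the 3 rapamycin libraries at 12.4, 23.9 and 21.9 CPM, so the groups overlapped (log2 fold change -0.48, SE 0.25, adjusted p = 0.443). The lowest value of the list was that of *ddit4* (REDD1), a stress-induced inhibitor of mTOR complex 1, at 47.5, 50.7 and 14.5 CPM with DMSO and 10.2, 4.57 and 6.44 CPM with rapamycin. Its groups did not overlap, and it was at the limit: adjusted p = 0.0519, and 0.0352 with the replicate block, where it is a downregulated DEG (log2 fold change -2.41, SE 0.50). On the other side stood *eif4ebp3*, a 4E-BP, at 46 ± 14.6 CPM with DMSO and 128 ± 55.6 CPM with rapamycin (1.48, SE 0.34, adjusted p = 0.0717), *tbc1d7*, the third subunit of the TSC complex, at 10.3 ± 0.724 and 21.5 ± 4.26 CPM (adjusted p = 0.0745), and *pdpk1a*, a PDK1 gene, at 7.23 ± 1.40 and 16.3 ± 1.46 CPM (adjusted p = 0.106). Among 17 tested FKBP genes, the family that binds rapamycin, 0 were DEGs. At an unadjusted p under 0.05, 3 were higher and 0 lower (9.08% and 4.45% of all tested genes were).

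Among the listed autophagy genes 2 rose. In the DMSO libraries *prkn*, which encodes Parkin, the ubiquitin ligase that marks damaged mitochondria, was close to absent at 0.189, 0.0333 and 0.0408 CPM (ENSDARG00000021555, GRCz11 chromosome 13, 3354895 to 3516473), and with rapamycin it was at 2.89, 2.92 and 1.91 CPM, near its level in intact RPE (3.28 ± 1.36 CPM in MTZ- DMSO). The log2 fold change of 4.82 (SE 0.84, adjusted p = 0.0409) rests on a few reads in each DMSO library, namely 5, 1 and 1 counts. The second gene, *atg10*, an E2-like enzyme of the conjugation step, went from 7.43 ± 1.65 to 23.4 ± 10.9 CPM, and its call was lost with the replicate block (adjusted p = 0.0532). Over the list 26 of 32 tested genes had a log2 fold change above 0 with a median of 0.46 (0.30 without the third rapamycin library). Of these genes 12 were higher without overlap between groups (9.44% of all tested genes were), and 0 were downregulated. *atg13*, a partner of the ULK kinase that mTOR phosphorylates, is an example short of the limit, at 59.5, 69.6 and 53.1 CPM against 108, 113 and 120 CPM (adjusted p = 0.0612). For *bnip3lb*, a mitophagy receptor gene outside the list and picked after its values were seen, the level rose from 43.6 ± 9.52 to 91.3 ± 10.5 CPM. The autophagy gene *vmp1*, also outside the list and picked in the same way, went down. It fell from 270 ± 69.5 to 112 ± 9.35 CPM and was a DEG (log2 fold change -1.27, SE 0.24, adjusted p = 0.0438, edgeR). Lysosomal genes (33 tested) and proteasome genes (51 tested) held 0 DEGs at medians of 0.23 (0.03 without the first rapamycin library) and 0.24 (-0.04 without the third).

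Genes for heme synthesis, cobalamin transport and defence against oxidants rose as single genes. The rate-limiting enzyme of heme synthesis, *alas1* (ENSDARG00000021059, GRCz11 chromosome 11, 260763 to 270210), was at 368, 416 and 554 CPM with DMSO and at 1355, 1548 and 1295 CPM with rapamycin (log2 fold change 1.65, SE 0.26, adjusted p = 0.0361). For *gstr*, a glutathione S-transferase, the values were 64.4, 73.3 and 79.5 CPM against 176, 188 and 313 CPM (1.64, SE 0.24, adjusted p = 0.0300). The extracellular superoxide dismutase *sod3a* rose from 11.4 ± 3.08 to 35.5 ± 12 CPM, and *ahcy*, which breaks down S-adenosylhomocysteine, from 157 ± 44.8 to 507 ± 162 CPM. In each of these 4 genes, as in every DEG, the groups did not overlap. These last 3 were the DEGs among 29 tested genes of oxidative defence, whose median was 0.16 (-0.07 without the third rapamycin library) with 17 above 0. The carrier of vitamin B12, *tcn2* (overlapping *rabl6b*), had the smallest adjusted p after *krt97* among the upregulated genes (2.31, SE 0.27, adjusted p = 0.00654). Other top DEGs have less settled roles: *itm2bb*, an integral membrane protein, rose from 27.6 ± 3.37 to 78.6 ± 15.4 CPM, *hikeshi*, named for the nuclear import carrier of Hsp70, from 49.7 ± 2.17 to 149 ± 55.5 CPM, and *sgce*, a sarcoglycan, from 128 ± 11.6 to 286 ± 52.2 CPM.

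Among the downregulated DEGs was *fzd8a*, a Frizzled receptor for Wnt ligands. Its level was 39.1 ± 1.87 CPM with DMSO, from 37.6 to 41.2 CPM, and 12.6, 16.4 and 11.7 CPM with rapamycin (ENSDARG00000045444, GRCz11 chromosome 24, 4447635 to 4450238; log2 fold change -1.53, SE 0.23, adjusted p = 0.0300). The selenium carrier *selenop* fell by 3.36 on the log2 scale (SE 0.34, adjusted p = 0.00222), and no other member of the list of 28 tested selenoprotein and selenium genes was a DEG (median 0.09, and -0.15 without the third rapamycin library). Outside that list, and picked after its values were seen, *selenoj*, a selenoprotein gene by its name, rose from 38.8, 30.4 and 41.1 CPM to 73.9, 74.5 and 118 CPM (log2 fold change 1.27, SE 0.22, adjusted p = 0.0409). The enzyme that breaks down sphingosine 1-phosphate, *sgpl1*, fell from 44.0 ± 6.15 to 16.6 ± 2.07 CPM, although its span overlaps that of *pcbd1*. A forkhead transcription factor, *foxp2*, was at 5.72, 6.03 and 3.23 CPM with DMSO and 0.555, 1.05 and 0.544 CPM with rapamycin (-2.79, SE 0.49, adjusted p = 0.0409; it overlaps *ppp1r3aa*). For 3 low DEGs that were nearly at 0 with rapamycin no fitted fold is given. *ces2b_1*, a carboxylesterase gene, held 0 counts in all 3 rapamycin libraries and 0.682 ± 0.504 CPM with DMSO, so it was at least 6.68-fold lower with rapamycin, taking a floor of 3 counts per library. *b3gnt7l* held 1, 0 and 0 counts with rapamycin against 1.89, 0.967 and 1.31 CPM with DMSO, and *si:ch211-244c8.4* held 0, 1 and 0 counts against 2.16, 2.30 and 2.53 CPM.

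Among genes of lipid mediators 2 fell, and among those of protease control another 2. Of 14 tested genes for prostaglandins and leukotrienes, *ptgdsb.2*, a prostaglandin D2 synthase of the lipocalin family, went from 110, 114 and 240 CPM to 40.5, 40.2 and 43.7 CPM (log2 fold change -1.90, SE 0.33, adjusted p = 0.0409), with its span overlapping *zfx*. *lta4h*, which makes leukotriene B4, went from 41.3, 45.2 and 44.5 CPM to 15.6, 23.6 and 16.2 CPM (-1.24, SE 0.23, adjusted p = 0.0435). As for every DEG, the groups overlapped in neither gene. The list's median was -0.46 (-0.20 without the third rapamycin library and -0.24 without the first DMSO library). It held 2 genes higher and 2 lower at an unadjusted p under 0.05 (9.08% and 4.45% of all tested genes were). Among 16 tested proteases and inhibitors of the matrix, *timp2b*, an inhibitor of metalloproteinases, fell from 26.2 ± 15.6 to 5.58 ± 1.28 CPM, and *serpinb1*, a serpin named after the inhibitor of leukocyte elastase, fell from 43.6 ± 14.5 to 5.49 ± 0.953 CPM (-2.99, SE 0.54, adjusted p = 0.0435). The metalloproteinase *mmp9* was at 16.1, 50.3 and 13.1 CPM with DMSO and 0.263, 3.64 and 0.181 CPM with rapamycin, without overlap, yet it varied too much to pass (adjusted p = 0.214; 0.0240 with the replicate block, where it is a DEG). The list's median was -1.09, with 11 of 16 below 0, and -0.32 without the second DMSO library.

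Genes of 3 cytochromes P450 and 2 helpers of protein folding also fell. *cyp1b1*, a target of the aryl hydrocarbon receptor, was at 40.9, 8.77 and 5.68 CPM with DMSO and 0.584, 0.193 and 0.363 CPM with rapamycin (log2 fold change -5.59, SE 1.04, adjusted p = 0.0497). The first DMSO library was several times the other two. The family members *cyp2ad3* and *cyp2ad6*, which both overlap *cyp2v1* and so are uncertain as single genes, fell from 239 ± 27.6 to 79.6 ± 36.5 and from 26.7 ± 7.58 to 4.95 ± 2.95 CPM. These 2 were the DEGs among 21 tested P450 genes, with a median of -0.59 (-1.01 without the third rapamycin library). In the endoplasmic reticulum, *pdia4*, a disulfide isomerase, fell from 59.2 ± 13.3 to 19.7 ± 2.94 CPM, and *calr*, the chaperone calreticulin (outside the lists and picked after its values were seen), from 61.8 ± 5.54 to 26.2 ± 7.38 CPM. The chaperone list held 28 tested genes, of which *pdia4* was the only DEG, and its median of -0.46 turned to 0.35 without the third DMSO library.

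**Figure D3:**
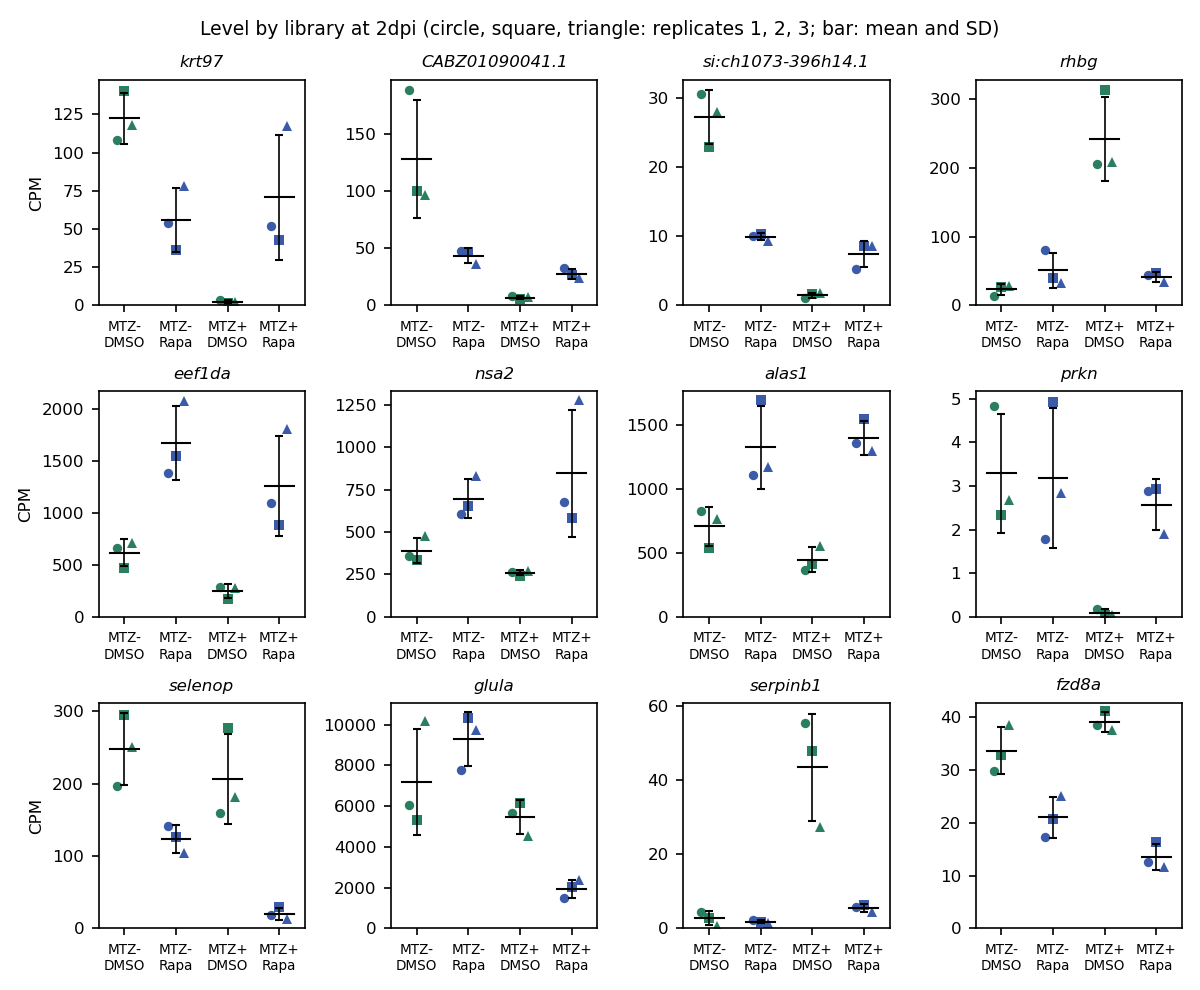
Level in CPM (y axis, from 0) of 12 DEGs in each of the 12 libraries at 2dpi; circles, squares and triangles are replicates 1, 2 and 3, green is DMSO and blue is rapamycin, and bars give mean and SD (n = 3). In *krt97*, *CABZ01090041.1* and *si:ch1073-396h14.1* the mean is highest in intact DMSO and lowest in ablated DMSO libraries, while in *rhbg* and *serpinb1* the 3 ablated DMSO libraries are the highest of the 12.

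Transcripts that define the RPE were higher with rapamycin, but none passed the test. The 9 marker genes summed to 23110, 16265 and 32338 CPM in the DMSO libraries and to 39192, 62042 and 70205 CPM with rapamycin, so every rapamycin library was above every DMSO library, and the intact MTZ- libraries of both treatments spanned 70594 to 120110 CPM. All 9 markers were detected in each of the 6 libraries, which does not show how pure the sorted cells were. *dct*, an enzyme of melanin synthesis, was at 5816, 3458 and 8185 CPM with DMSO and 11379, 17340 and 20342 CPM with rapamycin (log2 fold change 1.49, SE 0.34, adjusted p = 0.0716; 0.0372 with the replicate block). For *pmela*, which forms the melanosome matrix, the log2 fold change was 1.22 (SE 0.30, adjusted p = 0.0920; 0.0298 with the block), and for *rpe65a*, the isomerase of the visual cycle whose promoter drives the transgene, it was 1.17 (SE 0.34, adjusted p = 0.148; 0.0461 with the block). All 9 had positive values, with a median of 1.19, and 5 were higher without overlap (9.44% of all tested genes). More RPE cells among those sorted and more of these transcripts per cell cannot be told apart in such pools.

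Melanin genes went the same way, but their list shares members with the RPE markers, so it is no independent result. All 17 tested had values above 0, the median was 1.09, and 9 were higher without overlap (9.44% of all tested genes were). Their DEG was *rab38c*, related to the small GTPases that carry pigment enzymes to melanosomes, at 21.5, 13 and 20.4 CPM with DMSO and 32.5, 53.8 and 91.8 CPM with rapamycin (log2 fold change 1.70, SE 0.33, adjusted p = 0.0497). The visual cycle list was mixed, with a median of 0.70 (0.33 without the third rapamycin library), 11 of 16 above 0 and 0 DEGs. That list also shares members with the RPE markers, among them *lrata*, which esterifies retinol. This gene was at 172, 62.6 and 76.0 CPM with DMSO and 155, 330 and 1654 CPM with rapamycin, and the groups overlapped. By contrast *rdh10a*, a retinol dehydrogenase, was at 32.7, 118 and 75.5 CPM with DMSO and at 13.9, 11.1 and 23.6 CPM with rapamycin (log2 fold change -2.22, SE 0.57, adjusted p = 0.102).

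The transporters on the RPE transport list went the other way. This list was chosen with earlier results of these data known, so its median is not independent of them. The paper's transport pathway among genes downregulated in this comparison also holds *rhbg*, *slc1a2b* and *slc38a4*. Of 19 tested, 15 were below 0, the median was -1.42, and 11 were lower in every rapamycin library than in every DMSO library (7.40% of all tested genes were). Only *rhbg*, an ammonium channel of the Rhesus family, was a DEG, at 205, 313 and 208 CPM against 43.9, 47.0 and 33.6 CPM. Short of the limit stood *slc1a2b*, a glutamate transporter, at 248, 384 and 277 CPM with DMSO and 95.1, 91.0 and 74.0 CPM with rapamycin (adjusted p = 0.0664), and *slc38a4*, an amino acid transporter, at 38.4, 69.3 and 38.3 CPM against 5.90, 14.5 and 6.67 CPM (adjusted p = 0.0671). Genes of fatty acid synthesis lay at a median of -1.10 (-0.68 without the second DMSO library) with 13 of 16 below 0 and 0 DEGs. *fasn*, fatty acid synthase, was at 49.5, 81.5 and 73.7 CPM and at 33.9, 31.8 and 30.6 CPM (-1.09, SE 0.28, adjusted p = 0.0968), and *elovl1b*, a fatty acid elongase, was a DEG only with the replicate block (adjusted p = 0.197 without it and 0.0498 with it). Glycolysis genes (32 tested, median -0.21), cell cycle genes (31 tested, -0.18) and sterol synthesis genes (24 tested, -0.05) held 0 DEGs, with 3, 1 and 2 genes higher and 7, 1 and 2 lower at an unadjusted p under 0.05 (9.08% of all tested genes were higher and 4.45% lower at that limit). The cell cycle median lay between -1.18 and 0.33 when any 1 library was left out.

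The most abundant downregulated DEG was *glula*, glutamine synthetase (ENSDARG00000099776, GRCz11 chromosome 2, 18988407 to 18992350). It was at 5663, 6164 and 4525 CPM with DMSO and 1484, 2008 and 2355 CPM with rapamycin (log2 fold change -1.48, SE 0.30, adjusted p = 0.0497), while intact RPE held 7183 ± 2608 CPM with DMSO and 9284 ± 1328 CPM with rapamycin. Glutamine synthetase is also a marker of Müller glia. Among the 9 tested markers of these cells 8 were below 0, 6 of them without overlap (7.40% of all tested genes were lower without overlap). Their sum ran from 7787 to 11449 CPM with DMSO and from 3667 to 4620 CPM with rapamycin, most of it from *glula* and its paralog *glulb*. The defining marker *gfap* was low throughout, at 6.14, 5.83 and 2.53 CPM against 0.759, 1.21 and 1.23 CPM. The part of Müller glia in the fall of *glula* was not tested.

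Skin keratins were also higher with rapamycin in ablated RPE, but peaked in other rapamycin libraries than *krt97*, a type I keratin gene. Its level was 3.30, 1.53 and 1.88 CPM with DMSO and 51.6, 42.9 and 117 CPM with rapamycin (ENSDARG00000000212, GRCz11 chromosome 22, 11756040 to 11759106), the strongest call of the comparison (log2 fold change 4.98, SE 0.47, adjusted p = 0.00222). The 14 epidermal markers, *krt97* included, summed to 37.7, 35.7 and 50.8 CPM with DMSO and to 327, 930 and 379 CPM with rapamycin, and 8, 6 and 14 of them were above 0 in the DMSO libraries against 12, 13 and 13 with rapamycin. The skin keratin *krt4* was at 0.152, 0 and 1.35 CPM against 26.3, 181 and 54.1 CPM, and *krt5* at 0, 0 and 0.858 CPM against 31.1, 29.9 and 12.3 CPM. Neither was a DEG (adjusted p = 0.223 and 0.263). In intact MTZ- DMSO libraries *krt97* was at 108, 141 and 118 CPM and *krt4* at 0, 7.21 and 2.04 CPM, and the highest *krt4* of any MTZ- library, 164 CPM in the first MTZ- rapamycin library, went with 53.8 CPM of *krt97*. In intact RPE rapamycin gave *krt97* a log2 fold change of -1.13 (SE 0.40, adjusted p = 0.451, edgeR), while the epidermal list had a median of 3.85. There, 4 of the 14 markers were higher and 1 lower at an unadjusted p under 0.05 (4.45% and 3.10% of all tested genes were). The part of skin cells in the change of *krt97* was not tested, and reads may be shared among keratin genes.

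**Figure D4:**
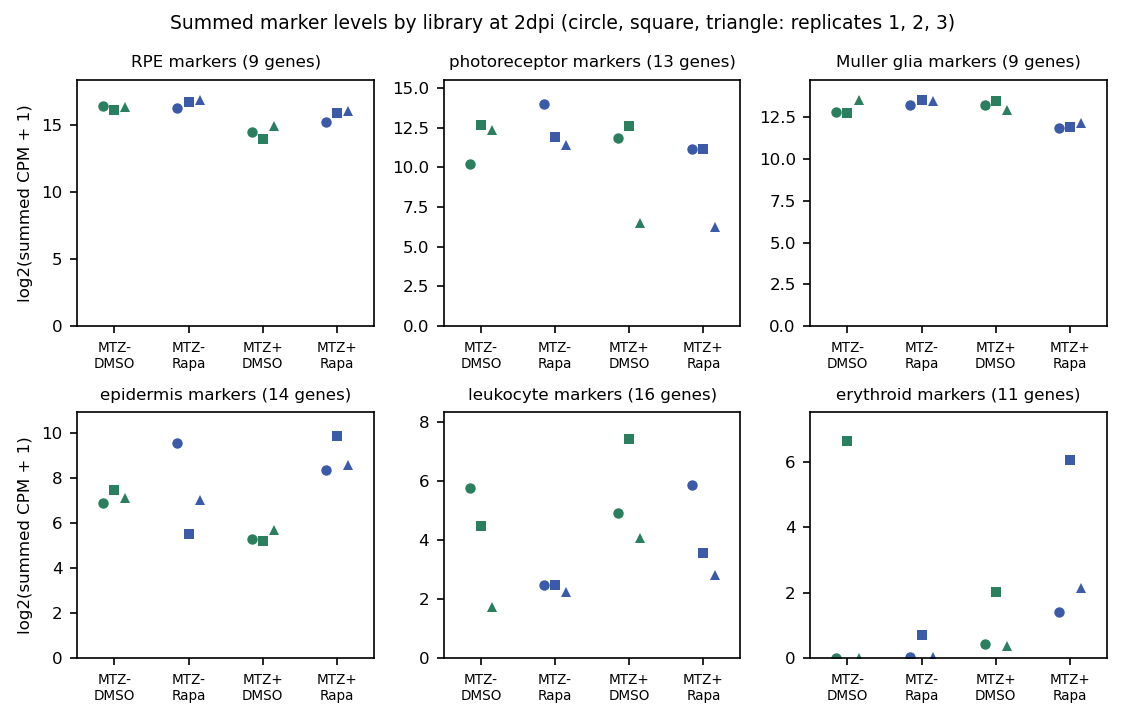
Summed level of the marker genes of 6 cell types in each of the 12 libraries at 2dpi, as log2 of the summed CPM plus 1 (y axis, from 0); circles, squares and triangles are replicates 1, 2 and 3, green is DMSO and blue is rapamycin. RPE markers are high in every library, epidermal markers are higher in the 3 ablated rapamycin libraries than in the 3 ablated DMSO libraries, and photoreceptor markers are low in the third replicate of both ablated groups.

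The summed markers of other pigment cells, muscle and lens also separated the groups, while single members of each list went both ways. By log2 fold change, 4 of 8 tested pigment cell markers, 3 of 7 muscle markers and 3 of 10 lens markers were above 0. The pigment cell markers summed to 2229, 1515 and 3504 CPM with DMSO and 3804, 3794 and 5363 CPM with rapamycin, most of it from *pnp4a* and *gch2*. The part of such pigment cells in the level of melanin genes was not tested. The muscle list summed to 2514, 1478 and 3574 CPM and to 3877, 4318 and 11698 CPM, nearly all of it myoglobin (*mb*), which intact RPE held at 13716 CPM on average with DMSO. Lens markers were near 0 in both groups, between 4.51 and 6.33 CPM with DMSO and between 2.31 and 3.53 CPM with rapamycin. The sums of photoreceptor, leukocyte and erythroid markers overlapped between groups. Photoreceptor markers summed to 3708, 6257 and 91.0 CPM with DMSO and 2282, 2272 and 73.6 CPM with rapamycin, so the third replicate of both groups was low. Leukocyte markers summed to 28.9, 170 and 15.8 CPM and to 57.3, 10.9 and 6.03 CPM, the peak being the second DMSO library. A neutrophil gene of that list did not follow its sum: *mpx*, myeloperoxidase, was at 8.45, 9.57 and 8.33 CPM with DMSO, at 1.11, 0.854 and 1.45 CPM with rapamycin and at or near 0 in intact RPE (log2 fold change -2.95, SE 0.71, adjusted p = 0.0968), a gene looked up after its values were seen. Erythroid markers reached 65.5 CPM in the second rapamycin library and at most 3.40 CPM in the other 5.

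The effect of rapamycin was then set against that in intact MTZ- RPE of the same age, which shares no library with it. There, 15 genes were upregulated (0.0855%) and 0 downregulated by edgeR's quasi-likelihood test, with 780 genes higher (4.45%) and 543 lower (3.10%) at an unadjusted p under 0.05, and 128 upregulated and 101 downregulated genes by DESeq2. Leaving out any 1 of those 6 libraries gave 0 to 7 DEGs, the 0 without MTZ- DMSO replicate 3. None of the 15 was among the 93 DEGs of ablated RPE (0.530% of all tested genes were). There, 13 of the 15 had a value above 0 (8942 of all 17536 tested genes did). An example is *hsp90ab1*, a cytosolic Hsp90 that rose with rapamycin in intact RPE (log2 fold change 1.36, SE 0.22, adjusted p = 0.0430) and had 0.91 (SE 0.21, adjusted p = 0.0765) in ablated RPE. In the other direction, 49 of the 62 genes upregulated in ablated RPE (79.0%) had a value above 0 in intact RPE, at a median of 0.39 against 1.58. Of the 31 downregulated genes 19 (61.3%) were below 0, at a median of -0.54 against -1.92. The genes were called on the libraries that gave 1.58 and -1.92, which enlarges those medians. The medians therefore cannot show that the effect was weaker in intact RPE. Over all tested genes, 50.1% had a value above 0 in intact RPE. That a gene passed in one state and not in the other does not show a difference. Which genes passed in both states also depended on the model. With the replicate block, *eef1da*, *ddx21* and *ahcy* were among the genes upregulated in both. With it, *CABZ01090041.1* was upregulated in ablated and downregulated in intact RPE. The adjusted p in intact RPE was 0.0359 for each of these genes (edgeR).

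The difference itself, tested as an interaction, was called for 4 of 17536 genes (0.0228%, 1340 genes at an unadjusted p under 0.05, and 165 by DESeq2). In each of the 4, the fitted effect of rapamycin had opposite signs in the 2 states. *krt97* differed by 6.11 on the log2 scale (SE 0.61, adjusted p = 0.00415). A pair of the others, *CABZ01090041.1* and *si:ch1073-396h14.1*, are neighbours on GRCz11 chromosome 22, at 15633013 to 15643059 and at 15643174 to 15693085, with 114 bases between them. *CABZ01090041.1* was at 7.80, 5.60 and 6.94 CPM in MTZ+ DMSO and 32.6, 26.4 and 23.6 CPM in MTZ+ rapamycin, and in intact RPE at 188, 100 and 96.5 CPM with DMSO and 47.5, 46.5 and 36.2 CPM with rapamycin. Its neighbour *si:ch1073-396h14.1* had the same order of groups at lower levels, with 1.02, 1.63 and 1.72 CPM, then 5.26, 8.51 and 8.53 CPM, then 30.6, 22.9 and 28 CPM, then 10.1, 10.3 and 9.32 CPM. No overlap existed between DMSO and rapamycin in either state for either gene. The interaction was 3.58 (SE 0.40, adjusted p = 0.00614) for *CABZ01090041.1* and 3.80 (SE 0.44, adjusted p = 0.00670) for *si:ch1073-396h14.1*. The gene on the other side of *CABZ01090041.1*, *lpl*, lipoprotein lipase, looked up for its position, was at 554, 367 and 493 CPM in MTZ+ DMSO, 829, 1026 and 1109 CPM in MTZ+ rapamycin, 1692 ± 326 CPM in MTZ- DMSO and 1059 ± 292 CPM in MTZ- rapamycin, with an interaction of 1.74 (adjusted p = 0.221). The fourth gene, *rhbg*, had an interaction of -3.68 (SE 0.51, adjusted p = 0.0382; 0.0887 with the replicate block, where it was not called). The call of *rhbg* was also lost without the robust option of the fit and in at least 10 of the 12 fits that left out 1 library.

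**Figure D5:**
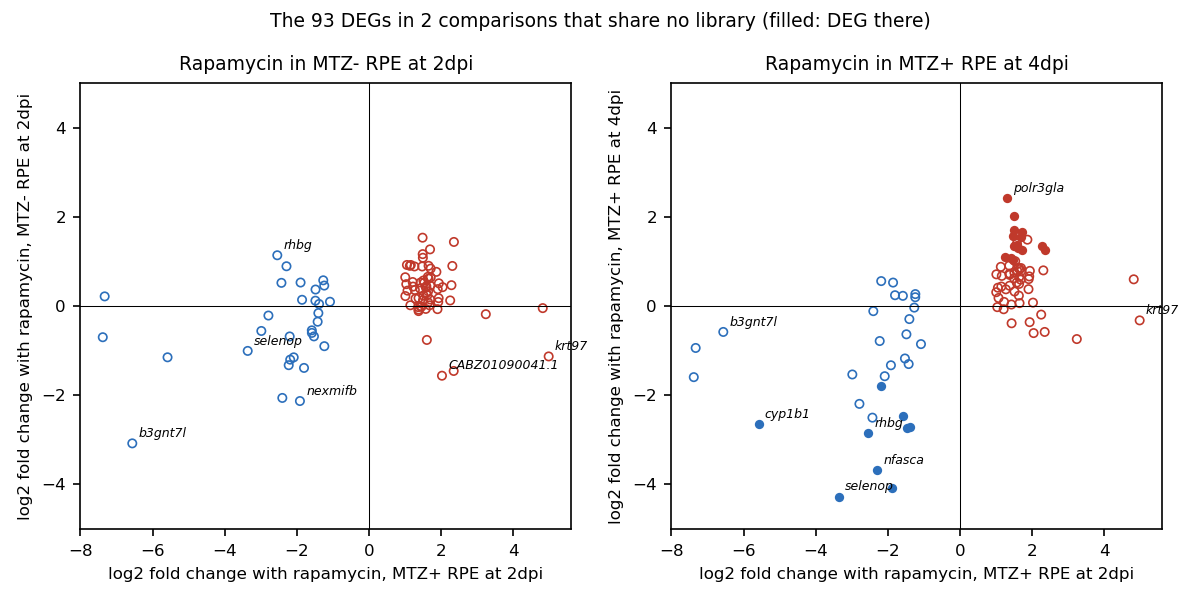
Log2 fold change with rapamycin of the 93 DEGs of ablated RPE at 2dpi (x axis) against that in intact RPE at 2dpi (left, y axis) and in ablated RPE at 4dpi (right, y axis); red genes were upregulated and blue genes downregulated at 2dpi, and filled points are DEGs in the comparison on the y axis. In these fits without the replicate block no point is filled on the left. On the right 15 red and 9 blue points are, all with the sign they had at 2dpi.

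At 4dpi, in other libraries of ablated RPE, rapamycin upregulated 152 of 17515 tested genes (0.868%) and downregulated 311 (1.78%). In the library names the letter C marks MTZ+ DMSO and D marks MTZ+ rapamycin, except in replicate 2 at 4dpi, where they are reversed. That replicate held 30716905 counts with DMSO (20607731 and 20950454 in the others) and 23743339 with rapamycin (33669100 and 37189527 in the others). The sample titles were followed, and an exchange of labels was not tested. Of the 62 genes upregulated at 2dpi, 15 were upregulated again, which is 15 of the 152 at 4dpi, and 9 of the 31 downregulated genes were among the 311, with 0 called in the opposite direction. The repeated upregulated genes include the translation and ribosome genes *eef1da* (log2 fold change 1.25 at 4dpi), *tpt1* (1.56), *eef2l2* (1.31), *rpl37_1* (1.07), *nsa2* (1.26), *ddx21* (2.02), *pno1* (1.71) and *polr3gla* (2.41). Repeated downregulated genes include *selenop* (-4.27), *rhbg* (-2.85), *ptgdsb.2* (-4.07), *glula* (-2.74), *cyp1b1* (-2.64), *cyp2ad3* (-2.46), *nfasca*, a neurofascin cell adhesion gene (-3.68), and *bmp7b*, a BMP ligand gene (-2.72, picked after its values were seen). Genes such as *krt97* (-0.32, SE 0.68), *prkn* (0.60, SE 0.70) and *lta4h* (0.20, SE 0.41) were no DEGs at 4dpi. The 83 ribosomal proteins had a median of 0.56 at 4dpi and the 50 biogenesis factors one of 1.09. The difference between the time points was called for 1 of 18939 genes (0.00528%, 1790 genes at an unadjusted p under 0.05, and 127 by DESeq2), *arhgef1b*, at 0.20 (SE 0.19) at 2dpi and -1.34 (SE 0.15) at 4dpi, so other differences between 2dpi and 4dpi were not established.

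Ablation itself, MTZ+ DMSO against MTZ- DMSO, shares its MTZ+ libraries with the rapamycin comparison, so the levels of all 4 groups are given side by side and no overlap was counted. The 62 upregulated and 31 downregulated genes were called on the MTZ+ libraries themselves. That choice favours low MTZ+ DMSO levels in the upregulated set and high ones in the downregulated set. The medians below therefore cannot show whether rapamycin moved these genes towards their intact levels. The median level of the 62 upregulated genes was 65.9 CPM in MTZ- DMSO, 77.0 in MTZ- rapamycin, 26.7 in MTZ+ DMSO and 81.1 in MTZ+ rapamycin. For the 31 downregulated genes the medians were 23.1, 21.0, 39.1 and 11.8 CPM. Single genes depart from these orders, among them *polr3gla*, at 4.39 ± 0.717 CPM in MTZ- DMSO, 38.9 ± 6.53 in MTZ+ DMSO and 95.0 ± 22.3 in MTZ+ rapamycin, and *selenop*, at 248 ± 49.4, 206 ± 62.1 and, in MTZ+ rapamycin, 18.7, 29 and 12.3 CPM.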

How the data were processed

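The authors aligned reads and counted them per gene in CLC Genomics Workbench on GRCz11 and deposited, for each time point, a table of 25281 genes with raw total counts and TPM of each library. How reads of several genes and strand were treated, and the program's version, are not given in the sources used here. The deposited counts were tested and the deposited TPM were used only for the limit on group means. The authors' RPKM and CPM columns, and columns of their own comparisons (maximum group means, fold changes, p-values and adjusted p-values), were not used, and 0 columns were left without a sample. Only cells sorted for eGFP and against a dead-cell dye were sequenced, after SMART-Seq HT amplification per the labels.

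Counts were filtered with filterByExpr (minimum count of 10), scaled with TMM and fitted with glmQLFit (robust) and glmQLFTest in edgeR 4.0.16 (limma 3.58.1, R 4.3.3), with 1 mean for each of the 4 groups at 2dpi. A DEG needed a p under 0.05 after Benjamini-Hochberg adjustment over all tested genes, a change beyond 1 on the log2 scale, and at least 1 TPM on average in the higher group. The MTZ+ against MTZ- difference was a contrast of that fit, and 2dpi and 4dpi were compared in a joint fit. The smallest of the 12 totals at 2dpi was 22230490 counts, so 3 counts correspond to at most 0.135 CPM before TMM scaling. The scripts were tested on simulated counts, drawn with the dispersions that edgeR had fitted and with 200 genes changed. There edgeR called 111 changed and 1 unchanged gene, the block fit 107 and 2, and DESeq2 137 and 69.

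Alternatives were DESeq2 1.42.0, RLE size factors, no filter, no robust option, a CPM limit in place of TPM, no fold limit, thinning to 1 total, the 6 libraries alone and each library left out. The replicate number was also fitted as a block. Same-numbered libraries of a time point carry the same date in the labels, which do not say what happened on it. The pairing rests on that date, since the deviations of same-numbered MTZ+ libraries from their group means in log2(CPM + 1) correlated at 0.162, 0.0833 and 0.271 across genes. Same-numbered MTZ- libraries correlated at -0.129, 0.0918 and 0.376. Differently numbered pairs ran from -0.225 to 0.0872 in MTZ+ and from -0.448 to 0.336 in MTZ-. Genes were named where they ranked in the first 12 DEGs of a direction by adjusted p, a DEG in one of 57 gene lists, one of up to 4 further members of a list described, or of the mTOR or RPE lists. Other genes are said to be chosen after their values were seen. The lists and the comparison were chosen with earlier results of these data known.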

Additional observations from a re-analysis of the deposited data

Results flagged for a closer look

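The effect of rapamycin differed between ablated and intact RPE at 2dpi for 4 genes, by the interaction test in edgeR. The difference, MTZ+ minus MTZ- on the log2 scale, was 6.11 for *krt97*, 3.58 for *CABZ01090041.1*, 3.80 for *si:ch1073-396h14.1* and -3.68 for *rhbg*, whose call was lost in at least 10 of the 12 fits that left out 1 library. In the neighbouring pair on chromosome 22 every MTZ- DMSO library was above every library of the other 3 groups, in *krt97* one MTZ+ rapamycin library (117 CPM) lay within the MTZ- DMSO range of 108 to 141 CPM, and in all 3 genes every MTZ+ DMSO library was below all others. The epidermal markers, whose sum was also higher with rapamycin in ablated RPE, are given in the text beside *krt97*, and their part in its change was not tested.

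The effect of rapamycin in ablated RPE differed between 4dpi and 2dpi for *arhgef1b*, by -1.54 on the log2 scale (4dpi minus 2dpi, adjusted p = 0.0184, edgeR). At 2dpi its libraries overlapped, at 36.5, 41.5 and 48.4 CPM with DMSO and 53.2, 48.7 and 43.6 CPM with rapamycin, and at 4dpi its log2 fold change was -1.34 (SE 0.15, adjusted p = 0.00477). Its span overlaps that of *BX571738.1*.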

How the results depend on the processing

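The number of DEGs in ablated RPE depended on the model more than on filters. It stayed within 1.5 times of 93 with a CPM limit (92), no fold limit (95), no filter (114) and thinned libraries (109). RLE size factors gave 60 (39 up), fits without the robust option 38 (27 up, 11 down), DESeq2 571 (333 up, 238 down), the replicate block 214 (144 up, 70 down), the 6 libraries alone 0 in either direction and the 6 with the replicate block 14 (4 up, 10 down). Leaving out 1 library gave 2 to 67 DEGs, 1 to 50 upregulated and 1 to 17 downregulated. For intact RPE, 15 genes became 229 with DESeq2, 39 with the replicate block and 0 to 7 without 1 library. The difference between ablated and intact RPE, 4 genes, became 165 with DESeq2, 3 with the replicate block and 2 to 4 without 1 library, the 2 without MTZ- DMSO replicate 1. That between 4dpi and 2dpi, 1 gene, became 127 with DESeq2, 2 with the replicate block, 2 with the CPM limit and 0 to 25 without 1 library, the 25 without MTZ+ rapamycin 4dpi replicate 1. The cause was not tested. Of the alternative values computed for the genes named, 881 kept their direction and side of the threshold, 314 kept direction and lost the call, 34 gained it and 0 reversed. The block changed the call of *atg10* (lost), of *gtpbp4*, *ddit4*, *mmp9*, *elovl1b*, *dct*, *pmela*, *rpe65a*, *eif3k* and *eif3hb* (gained) and of the *rhbg* interaction (lost).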
